A study of Mus musculus with 6 samples.

Results

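The genes described here are 8 laminin chain genes (Lama1, Lama2, Lama3, Lama4, Lama5, Lamb1, Lamb2 and Lamc1) and the nidogen genes Nid1 and Nid2. They were taken by symbol from the gene tables of the 6 libraries, and all 10 were found among 24346 listed genes. RNA came from stromal cells sorted from the large intestine of mice, as live Podoplanin-positive cells that lacked CD45, CD31 and EpCAM (markers of leukocytes, endothelium and epithelium). The animals, 12 weeks old, had all been given 1% DSS (dextran sulfate sodium), which injures the colonic epithelium. The Pdgfra-cre group held 3 mice of genotype Pdgfra cre; Il10ra flox/flox (libraries 13, 23 and 25), and the floxed group 3 mice of genotype Il10ra flox/flox (libraries 8, 9 and 43), so both groups carried floxed alleles of Il10ra, which encodes the chain of the interleukin-10 receptor that binds its ligand. The cre recombinase was driven by Pdgfra, a gene of fibroblasts that other mesenchymal cells can also express. The comparison asked which laminin and nidogen transcripts differed between stromal cells of the genotypes.

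Laminins are large secreted trimers of an alpha, a beta and a gamma chain, and they form the sheet on which epithelium, muscle, nerve and vessels rest. The alpha chain holds the main binding sites for integrins and dystroglycan on the cell surface. Nidogens bind the gamma1 chain and type IV collagen and so link the laminin and collagen networks. In the intestine the mesenchyme supplies a large part of the subepithelial basement membrane, and the alpha chains present differ along the crypt and between mucosa and muscle.

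The values were FPKM (fragments per kilobase of transcript, scaled to the fragments mapped in a library). They are scaled by length, and levels of different chains were set side by side on that basis. Coverage along the transcripts was not examined, so levels and shares compared between genes are rough. The number of fragments per library was not given in the sources at hand. The spacing of the lowest values put depth at about 7650000 to 9010000 fragments per library, a rough estimate. Il10ra was 0.418 FPKM in floxed library 43 and listed at 0 in the other 5, so its deletion could not be seen. The Y-linked gene Ddx3y was between 35.3 and 45.7 FPKM in all 6 libraries and Xist did not exceed 0.0118, as in male cells. Fibroblast genes were abundant, with Col1a1 at 704 to 1201 FPKM. Pdgfra was 155, 120 and 174 FPKM in Pdgfra-cre libraries 13, 23 and 25. In floxed libraries 8, 9 and 43 it was 178, 186 and 200 FPKM (199.929 in library 43), without overlap between groups. Of 8 fibroblast markers, 7 were on average higher in Pdgfra-cre and only Pdgfra was lower. The endothelial cadherin gene Cdh5 was listed at 0 throughout, while Epcam did not exceed 1.11 FPKM and Ptprc, which encodes CD45, did not exceed 1.04 FPKM. Other markers listed for these cell types were not all low. Of 8 blood endothelial markers 2 reached 1 FPKM in 3 or more libraries, Tek (27.1 to 41.5 FPKM) and Esam (4.51 to 12.9 FPKM). Of 9 epithelial markers 5 did so, with Krt19 up to 15.4 FPKM, and of 8 leukocyte markers 4, with Lyz2 at 9.32 to 28.8 FPKM. Tek, Esam, Krt19 and Lyz2 were named after their values were seen. Library 23 of the Pdgfra-cre group stood apart, whose mean correlation with the rest over tested genes was lowest (0.950, against 0.960 to 0.970).

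These cells carried transcripts of a laminin set dominated by Lama4, Lama2, Lamb1, Lamb2 and Lamc1, with Nid1 as the main nidogen. Averaged over the 6 libraries, Lamb1 was highest at 271 FPKM, followed by Nid1 at 199, Lamc1 at 149, Lama4 at 114, Lamb2 at 58.1, Lama2 at 39.6, Nid2 at 18.6, Lama1 at 4.56, Lama5 at 1.32 and Lama3 at 0.0164 FPKM. Within single libraries this order held in 6 of 6 for every pair of neighbours except Lamb2 and Lama2, for which it held in 5 of 6. Across libraries the ranges of neighbours overlapped for Lamb1 and Nid1, for Nid1 and Lamc1, for Lamc1 and Lama4, for Lamb2 and Lama2, and for Lama1 and Lama5. The steps from Lama4 to Lamb2, from Lama2 to Nid2, from Nid2 to Lama1 and from Lama5 to Lama3 were free of overlap.

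**Figure D1:**
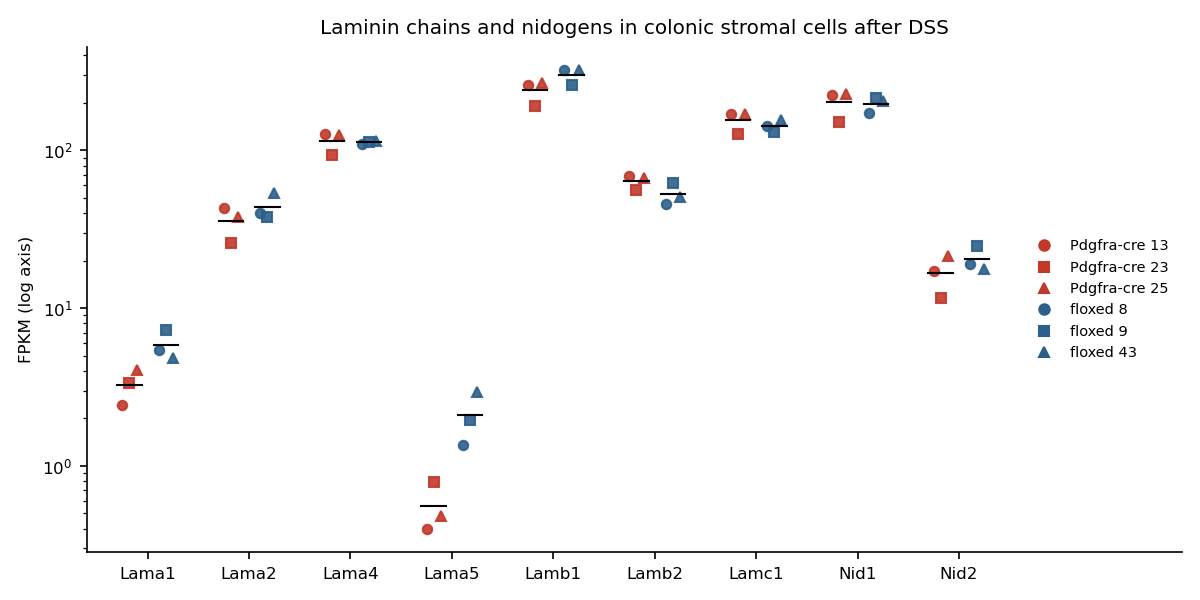
FPKM on a log axis of the 9 laminin and nidogen genes other than Lama3 in each library, with Pdgfra-cre libraries in red left of floxed libraries in blue and a bar at the group mean. Lamb1, Nid1, Lamc1 and Lama4 lie highest, Lama5 lies lowest, and the groups are apart only for Lama1 and Lama5.

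RefSeq promoter windows (250 bases before to 50 after a start, GRCm38.p6) were examined for 5 of the 10 genes and for no other member. They are shown for Lama5, the least abundant gene whose groups did not overlap, for Lamb1, the most abundant gene, and for Lamb2, its alternative in the trimer, to show how unlike these starts are. Each runs 5′ to 3′ on the gene's strand, and capitals mark matches to GGGCGG, the GC box, on either strand.
Lama5, minus strand, chr2:180225810-180226109: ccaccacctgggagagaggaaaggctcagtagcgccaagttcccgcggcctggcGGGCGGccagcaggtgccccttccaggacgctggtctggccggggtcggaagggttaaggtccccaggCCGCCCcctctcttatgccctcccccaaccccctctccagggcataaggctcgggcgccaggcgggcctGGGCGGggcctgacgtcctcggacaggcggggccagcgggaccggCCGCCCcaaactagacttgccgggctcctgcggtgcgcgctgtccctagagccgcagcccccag
Lamb1, plus strand, chr12:31265043-31265342: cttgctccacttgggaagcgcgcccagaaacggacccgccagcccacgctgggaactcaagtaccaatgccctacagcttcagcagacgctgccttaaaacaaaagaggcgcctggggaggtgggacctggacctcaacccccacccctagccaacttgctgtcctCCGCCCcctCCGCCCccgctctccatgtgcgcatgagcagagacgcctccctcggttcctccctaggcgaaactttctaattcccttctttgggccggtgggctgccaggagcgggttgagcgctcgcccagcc
Lamb2, plus strand, chr9:108479612-108479911: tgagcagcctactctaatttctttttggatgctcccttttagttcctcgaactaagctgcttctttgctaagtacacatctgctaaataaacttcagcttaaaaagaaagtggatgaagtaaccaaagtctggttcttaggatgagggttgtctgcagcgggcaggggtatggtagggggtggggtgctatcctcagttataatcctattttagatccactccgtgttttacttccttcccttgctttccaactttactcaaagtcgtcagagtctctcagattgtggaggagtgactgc
The GC box occurred 4 times in the Lama5 window, 2 times in that of Lamb1 and 0 times in that of Lamb2, and 35.7% of 32851 windows of this length held it. The windows were 72.7% G or C for Lama5, 63.7% for Lamb1 and 44% for Lamb2, against a median of 52.7% over all windows. Those of Lama2 and Nid1, not shown, were 50.3% and 64.7% G or C and held the GC box 1 time each. The TATA element, searched as TATAAA, was in none of the 5 windows on either strand and in 13.6% of all windows. The AP-1 element, searched as TGANTCA, was in none of the 5 and in 7.81% of all windows.

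No laminin or nidogen gene passed the test between genotypes. Genes that reached 1 FPKM in 3 or more libraries were tested with limma on log2(FPKM + 1), with Benjamini-Hochberg adjustment over 11429 genes. Of 9 members tested 0 passed an adjusted p of 0.05, and 0 of all 11429 genes did (0%). At an unadjusted p under 0.05 were 2 members, both lower in Pdgfra-cre, against 1253 genes, or 11%, of all tested and 628, or 5.49%, in that direction. Higher at that p were 0 members, against 5.47% of all genes. The libraries of the groups did not overlap for the same 2 members, Lama1 and Lama5, where 947 genes, or 8.29% of those tested, lay lower without overlap, and 0 members lay higher without overlap, against 8.07%. Lama5 met the filter through the floxed libraries alone, which favors this direction. Its place in these counts is therefore no support for a difference. Log2 fold changes (Pdgfra-cre over floxed) were below 0 for 5 members and above 0 for 4, with a median of -0.30 against 0.0012 over all tested genes. With quantile normalization, after rescaling to TPM (FPKM made to sum alike in every library), and without Pdgfra-cre library 13 or 25, 7 were below 0, and without Pdgfra-cre library 23 the median was -0.088. The median turned to 0.011 with a filter of 5 FPKM, which left 7 members tested (4 above 0 and 3 below), and it was -0.058 without floxed library 43, -0.078 without floxed library 9 and -0.18 without floxed library 8.

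**Figure D2:**
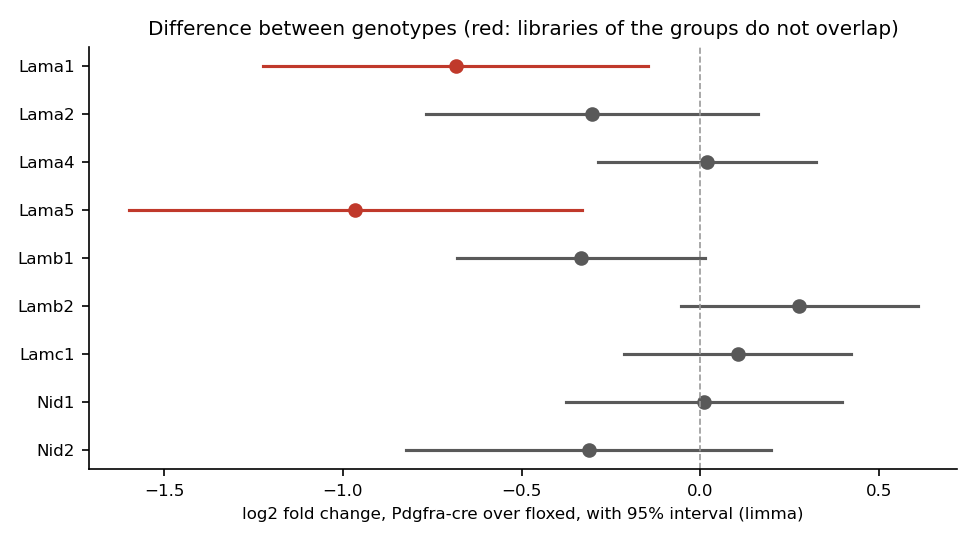
Log2 fold change of Pdgfra-cre over floxed for the 9 tested genes, with the 95% interval from limma on the log2(FPKM + 1) scale. The intervals of Lama1 and Lama5, in red, lie below 0 before adjustment over all genes, and those of the other 7 include 0.

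Among the alpha chains, Lama5 and Lama1 had lower levels in every Pdgfra-cre library than in any floxed one. Lama5 (chromosome 2, 180176373 to 180225859, mm10) encodes the alpha5 chain, the main alpha chain beneath adult epithelia. It was 0.396, 0.796 and 0.478 FPKM in Pdgfra-cre libraries 13, 23 and 25, against 1.35, 1.97 and 2.96 FPKM in floxed libraries 8, 9 and 43. The highest Pdgfra-cre library lay below the lowest floxed one, and floxed library 43 was the highest of all. The ratio of group means was 0.266, and the log2 fold change was -0.97 ± 0.28 (SE, n = 3 each; 95% interval -1.60 to -0.33; limma adjusted p = 0.247). Lama5 met the filter through the floxed libraries alone, which favors a difference in this direction, and without any 1 of them it was not tested. Roughly 39.0 to 292 fragments lay behind these values. The fold change was -1.72 with a pseudocount of 0.1 and -0.35 with a pseudocount of 5.

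Lama1 (chromosome 17, 67697259 to 67822647) encodes the alpha1 chain, prominent in embryonic basement membranes. It was 2.43, 3.36 and 4.03 FPKM in Pdgfra-cre libraries 13, 23 and 25, against 5.44, 7.28 and 4.86 FPKM in floxed libraries 8, 9 and 43. The groups were close, with Pdgfra-cre library 25 just under floxed library 43. The log2 fold change was -0.68 ± 0.24 (SE, n = 3 each; 95% interval -1.22 to -0.15; limma adjusted p = 0.319), and it was -0.39 with a pseudocount of 5. By unadjusted p, Lama5 ranked 332 and Lama1 646 among the 11429 genes.

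Summed marker levels of some other cell types lay apart between the same groups. The sums overlapped for the fibroblast list and for markers of glia, interstitial cells of Cajal, blood and lymphatic endothelium, epithelium and leukocytes. The 8 markers of PDGFRA-high subepithelial fibroblasts, which lie under the epithelium, summed to 154 to 253 FPKM in Pdgfra-cre libraries and 317 to 458 FPKM in floxed libraries, and all 8 had a log2 fold change below 0. Of its defining genes, Foxl1 was low throughout (0.225 to 2.95 FPKM), while Bmp7 was 13 ± 2.85 FPKM in Pdgfra-cre and 29.1 ± 2.54 FPKM in floxed libraries (SD, n = 3 each) and Bmp5 was 27.9 ± 8.23 FPKM in Pdgfra-cre and 72.6 ± 20.7 FPKM in floxed libraries. The 8 smooth muscle markers summed to 147 to 369 FPKM in Pdgfra-cre and 602 to 624 FPKM in floxed libraries, also with 8 of 8 below 0. The 8 pericyte markers summed to 58.6 to 76.3 FPKM in Pdgfra-cre and 88.2 to 99.1 FPKM in floxed libraries, with 5 of 6 tested below 0. Groups did not overlap for 2 of those tested. Pdgfrb, the most abundant, overlapped, at 33.5 ± 5.02 FPKM in Pdgfra-cre and 41.6 ± 4.56 FPKM in floxed libraries. Rgs5 was 3.72 ± 1.05 FPKM in Pdgfra-cre and 3.41 ± 0.24 FPKM in floxed libraries, and Notch3 and Higd1b did not exceed 0.199 and 0.379 FPKM. Markers of CD81 or CD34-positive fibroblasts summed to 2706 to 3740 FPKM in Pdgfra-cre and 1586 to 2167 FPKM in floxed libraries, with 7 of 8 above 0. The 7 mesothelial markers summed to 22.7, 68.2 and 14.0 FPKM in Pdgfra-cre libraries 13, 23 and 25, against 2.69, 8.62 and 4.27 FPKM in floxed libraries 8, 9 and 43, also without overlap and with 4 of 4 tested above 0. Msln, which encodes the mesothelial surface protein mesothelin, was 8.81, 28.1 and 4.22 FPKM in Pdgfra-cre libraries 13, 23 and 25, listed at 0 in floxed library 8, and 0.804 and 0.166 FPKM in floxed libraries 9 and 43 (log2 fold change 3.16 ± 0.54, SE; limma adjusted p = 0.147). No marker passed limma's test over all genes, the part of these cell types in the Lama1 and Lama5 levels was not tested, and in bulk RNA fewer cells of a type and less RNA per cell cannot be told apart.

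**Figure D3:**
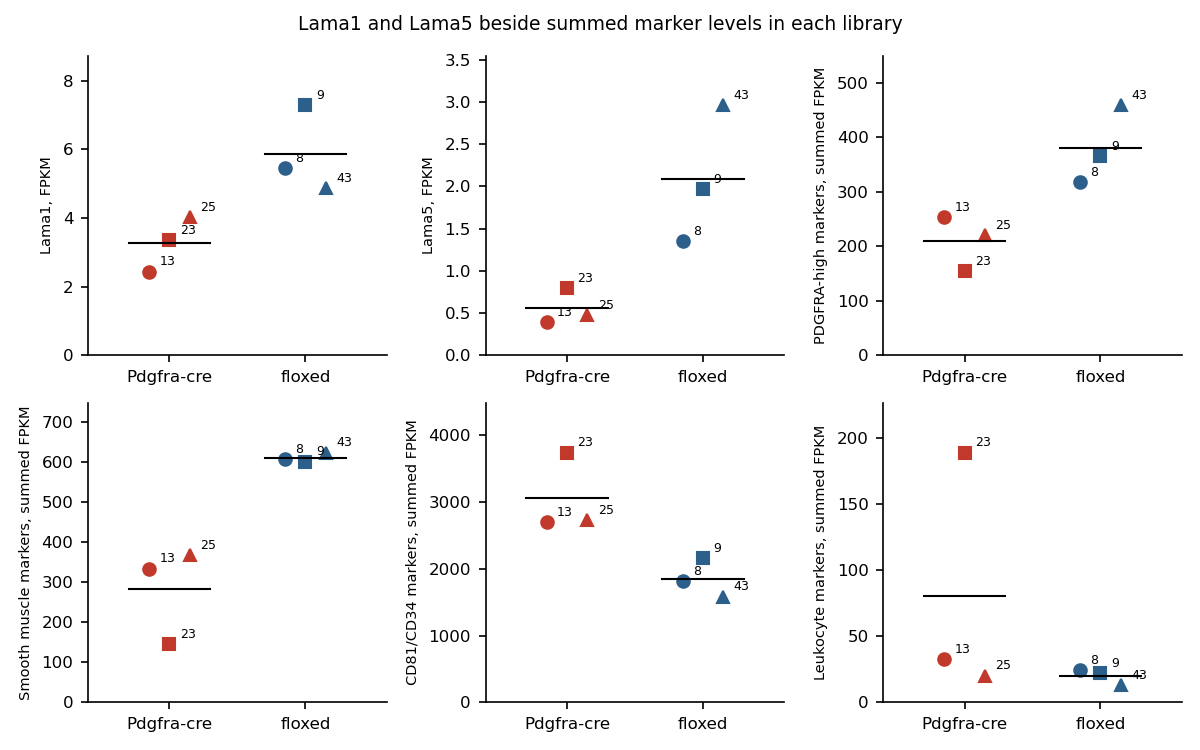
FPKM of Lama1 and Lama5 and summed FPKM of 4 marker lists in each library (numbered points), with Pdgfra-cre left of floxed and a bar at the mean. Lama1, Lama5, the PDGFRA-high markers and the smooth muscle markers are lower in all 3 Pdgfra-cre libraries, the CD81/CD34 markers are higher, and the leukocyte sum is highest in library 23 (189 FPKM).

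The abundant alpha chains overlapped between genotypes. Lama4 (chromosome 10, 38965515 to 39110188), the alpha chain of vessels and mesenchyme, was 127, 93.9 and 124 FPKM in Pdgfra-cre libraries 13, 23 and 25, against 110, 113 and 115 FPKM in floxed libraries 8, 9 and 43 (109.948 in library 8). Floxed libraries were close to each other, while the Pdgfra-cre libraries held both the lowest and the 2 highest values. The log2 fold change of 0.019 ± 0.14 (SE) had a 95% interval of -0.29 to 0.32 (limma adjusted p = 0.980), and its sign was negative with quantile normalization, after rescaling to TPM and without Pdgfra-cre library 13 or 25. Lama2 (chromosome 10, 26980036 to 27619758), whose loss causes a muscular dystrophy, was 43.02, 25.9 and 37.7 FPKM in Pdgfra-cre libraries 13, 23 and 25, against 39.8, 37.7 and 53.6 FPKM in floxed libraries 8, 9 and 43. Its interval was -0.77 to 0.16 around a log2 fold change of -0.30 (limma adjusted p = 0.664). Library 23 was low and floxed library 43 high, and the remaining 4 lay between 37.7 and 43.02 FPKM. The fold change was -0.098 without Pdgfra-cre library 23, -0.15 without floxed library 43 and -0.17 with array weights, which give less weight to libraries that vary more.

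Lama3 (chromosome 18, 12333819 to 12583013), the alpha chain that anchors epithelium through hemidesmosomes, was nearly absent. It was 0.0398 FPKM in Pdgfra-cre library 25 and 0.0583 FPKM in floxed library 9, and listed at 0 in the other 4 libraries. The nonzero values correspond to roughly 3.85 and 4.79 fragments, and a count of 0 allows up to 3 fragments, or about 0.0314 to 0.0322 FPKM in those 4 libraries. It was below the filter, and the exact permutation test (two-sided) returned p = 1, where 0.1 is the smallest p that 3 against 3 allows. The epithelial beta chain gene Lamb3 lay between 0 and 0.139 FPKM. Lamc3 did not exceed 0.812 FPKM, in floxed library 43.

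Of the beta chains, Lamb2 took a larger share in every Pdgfra-cre library than in any floxed one, with overlapping levels of each gene. Lamb1 (chromosome 12, 31265234 to 31329644), the widespread beta chain, was 261, 191 and 268 FPKM in Pdgfra-cre libraries 13, 23 and 25, against 323, 260.4 and 321 FPKM in floxed libraries 8, 9 and 43. Only the close values of Pdgfra-cre libraries 13 and 25 and floxed library 9 overlapped. The log2 fold change was -0.33 ± 0.15 (SE; 95% interval -0.68 to 0.012; limma adjusted p = 0.479), and it was -0.18 without Pdgfra-cre library 23. Lamb2 (chromosome 9, 108479736 to 108490530), the beta chain of neuromuscular junction and kidney filter, was 68.4, 56.1 and 66.4 FPKM in Pdgfra-cre libraries 13, 23 and 25, against 45.5, 61.8 and 50.4 FPKM in floxed libraries 8, 9 and 43. Its log2 fold change was 0.28 ± 0.15 (SE; 95% interval -0.055 to 0.61; limma adjusted p = 0.557), with floxed library 9 inside the Pdgfra-cre range, and it was 0.18 without floxed library 8 and after rescaling to TPM.

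Lamb2 made up 20.8%, 22.7% and 19.8% of the summed beta-chain FPKM in Pdgfra-cre libraries 13, 23 and 25, against 12.4%, 19.2% and 13.6% in floxed libraries 8, 9 and 43. These shares did not overlap, though Pdgfra-cre library 25 and floxed library 9 were close. The log2 ratio of Lamb2 to Lamb1, taken after adding 1 FPKM to each, was -1.89 ± 0.13 in Pdgfra-cre and -2.50 ± 0.39 in floxed libraries (SD, n = 3 each). The difference of 0.61 had an exact two-sided permutation p of 0.1, the smallest possible, and 0.2 after adjustment over the 2 ratios tested.

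Lamc1 (chromosome 1, 153218922 to 153332786) encodes gamma1, the gamma chain of most laminins and the chain that nidogens bind. It was 169, 127 and 169 FPKM in Pdgfra-cre libraries 13, 23 and 25 (126.887 in library 23), against 143, 130 and 157 FPKM in floxed libraries 8, 9 and 43 (129.907 in library 9). The groups overlapped, with both the lowest and the highest library in the Pdgfra-cre group (log2 fold change 0.10 ± 0.14, SE; 95% interval -0.21 to 0.42; limma adjusted p = 0.859). Without any 1 of Pdgfra-cre libraries 13 and 25 and floxed library 9 the fold change was 0.035 to 0.036, it was 0.17 without floxed library 43 and with array weights, and it was 0.051 with quantile normalization and 0.0067 after rescaling to TPM.

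Set against Lamc1 in the same library, Lamb1 was lower in all 3 Pdgfra-cre libraries than in any floxed one, while Lamb2 overlapped. Lamb1 was 1.55, 1.51 and 1.59 times Lamc1 in Pdgfra-cre libraries 13, 23 and 25, against 2.26, 2.005 and 2.05 times in floxed libraries 8, 9 and 43. Lamb2 was 0.405, 0.442 and 0.393 times Lamc1 in Pdgfra-cre libraries 13, 23 and 25, against 0.318, 0.476 and 0.322 times in floxed libraries 8, 9 and 43, with the higher mean in Pdgfra-cre. The sum of Lamb1 and Lamb2 was 1.95, 1.95 and 1.98 times Lamc1 in Pdgfra-cre libraries 13, 23 and 25, against 2.57, 2.48 and 2.37 times in floxed libraries 8, 9 and 43. The spread within each group was small, at 1.96 ± 0.018 in Pdgfra-cre and 2.47 ± 0.10 in floxed libraries (SD, n = 3 each), and library 23 did not stand apart in this ratio. The sum of the alpha chains was 0.996 ± 0.027 times Lamc1 in Pdgfra-cre and 1.151 ± 0.070 times in floxed libraries, also without overlap. Of 8 members divided by Lamc1, 4 (Lama1, Lama2, Lama5 and Lamb1) were lower in all 3 Pdgfra-cre libraries than in any floxed one and 0 were higher. Of the 11428 other tested genes divided by Lamc1 in the same way, 11.6% were lower without overlap and 2.71% higher, and the level of Lamc1 itself was on average higher in Pdgfra-cre, which lowers every such ratio there. These ratios share the Lamc1 value and were not tested, and division by Lamc1 was 1 of several ways to express composition.

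Among the alpha chains, Lama4 made up 73.5% to 75.8% of their summed FPKM in Pdgfra-cre libraries and 65.3% to 70.6% in floxed libraries. Lama2 followed with 20.9% to 24.8% in Pdgfra-cre and 23.6% to 30.3% in floxed libraries, which overlapped. Lama1 held 1.40% to 2.71% in Pdgfra-cre and 2.75% to 4.56% in floxed libraries, and Lama5 held 0.228% to 0.642% in Pdgfra-cre and 0.861% to 1.67% in floxed libraries. The shares of Lama4, Lama1 and Lama5 did not overlap between groups, and shares of 1 sum cannot move independently.

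**Figure D4:**
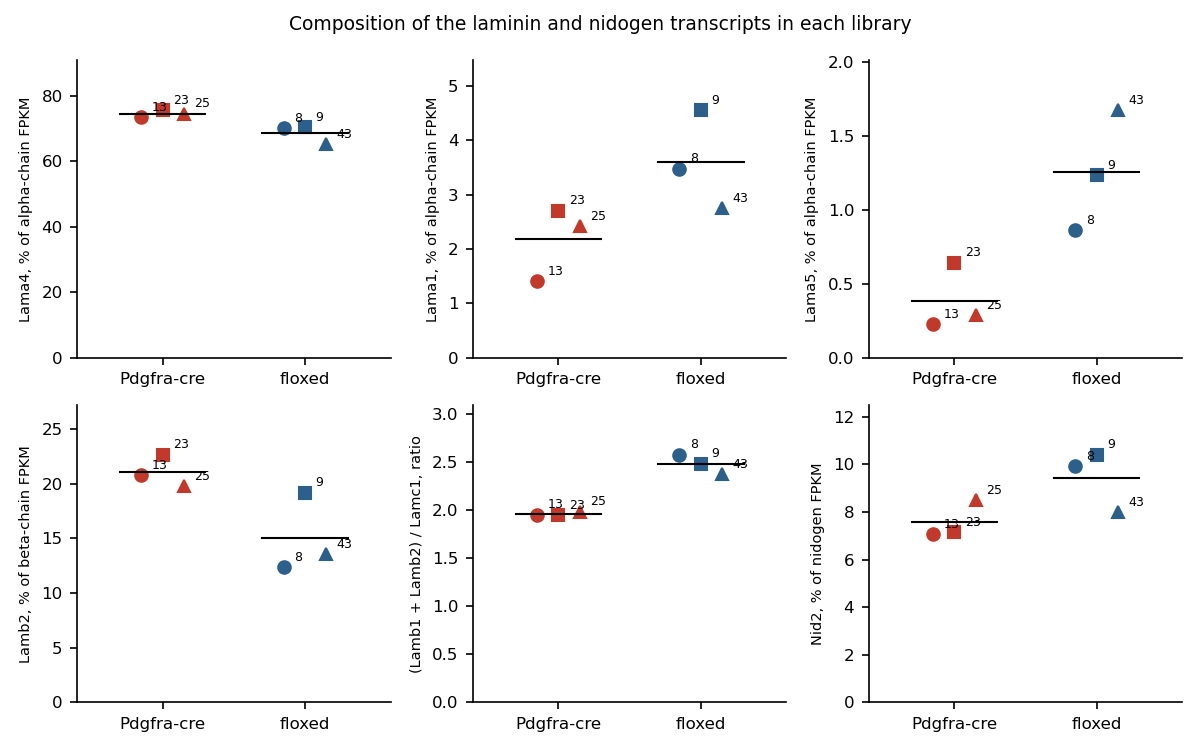
Shares of chains in the summed FPKM of their class, and the ratio of summed beta chains to Lamc1, in each library (numbered points), with Pdgfra-cre left of floxed and a bar at the mean. The ratio of beta chains to Lamc1 is 1.95 to 1.98 in Pdgfra-cre and 2.37 to 2.57 in floxed libraries, and the Nid2 share overlaps.

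Both nidogens overlapped between genotypes. Nid1 (chromosome 13, 13437551 to 13512269), the main nidogen here, was 224, 150.1 and 229 FPKM in Pdgfra-cre libraries 13, 23 and 25, against 173, 214 and 204 FPKM in floxed libraries 8, 9 and 43. Its log2 fold change of 0.011 ± 0.17 (SE) had a 95% interval of -0.38 to 0.40 (limma adjusted p = 0.993), and its sign was negative with quantile normalization, after rescaling to TPM and without Pdgfra-cre library 13 or 25 or floxed library 8. Nid2 (chromosome 14, 19751265 to 19811787), its paralog, was 17.1, 11.6 and 21.2 FPKM in Pdgfra-cre libraries 13, 23 and 25, against 19.0, 24.8 and 17.7 FPKM in floxed libraries 8, 9 and 43. The interval was -0.82 to 0.20 around a log2 fold change of -0.31 (limma adjusted p = 0.686). The fold change was -0.088 without Pdgfra-cre library 23, -0.17 without floxed library 9, -0.50 without Pdgfra-cre library 25 and -0.19 with array weights. The last 437 bases of Nid2 overlap the gene Rtraf on the other strand, and without strand their reads cannot be told apart. The log2 ratio of Nid2 to Nid1, with 1 FPKM added to each, was -3.53 ± 0.14 in Pdgfra-cre and -3.21 ± 0.21 in floxed libraries (SD, n = 3 each), a difference of -0.32 with an exact permutation p of 0.2 and 0.2 after adjustment over the 2 ratios.

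Library 23 held the lowest value of 6 members (Lama2, Lama4, Lamb1, Lamc1, Nid1 and Nid2), whereas it was lowest for 24.1% of all tested genes. Its level over the mean of Pdgfra-cre libraries 13 and 25 was 0.603 for Nid2, 0.642 for Lama2, 0.663 for Nid1, 0.723 for Lamb1, 0.747 for Lama4 and 0.752 for Lamc1. Lama5, in contrast, was 1.82 times that mean, and Lama1 was 1.04 times. In library 23 the 8 leukocyte markers summed to 189 FPKM, of which S100a8 made up 94.7, against 13.1 to 33.0 FPKM in the other 5 libraries. The mesothelial sum was also highest there, and the 9 epithelial markers summed to 48.6 FPKM there and to 5.75 to 25.7 FPKM in the others. The 100 most abundant genes took 35.3% of its summed FPKM, against 29.6% to 31.8% in the others, and the part of these differences in the low laminin values was not tested. Without library 23 the log2 fold changes of Lamc1 and Nid1 were 0.24 and 0.21.

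The other structural genes of basement membranes had fold changes on both sides of 0. Of 24 listed genes 16 were tested and 0 passed limma's test, with 6 above 0, 10 below 0 and a median log2 fold change of -0.081. At an unadjusted p under 0.05 were 4 genes, all lower in Pdgfra-cre and without overlap. Of all tested genes 5.49% were lower at that p and 8.29% were lower without overlap. Col18a1, which encodes the endostatin precursor, was 81.7, 56.8 and 135 FPKM in Pdgfra-cre libraries 13, 23 and 25, against 218, 189 and 189 FPKM in floxed libraries 8, 9 and 43 (log2 fold change -1.20 ± 0.26, SE; limma adjusted p = 0.169). Tinagl1, which encodes a laminin-like matrix protein, was 6.41 ± 2.45 FPKM in Pdgfra-cre and 12.5 ± 1.30 FPKM in floxed libraries (SD, n = 3 each), and the calcium-binding matrix gene Smoc1 was 2.93 ± 0.54 FPKM in Pdgfra-cre and 5.68 ± 1.37 FPKM in floxed libraries. The fourth, the collagen IV gene Col4a6, was 2.25 ± 1.61 FPKM in Pdgfra-cre and 5.50 ± 2.01 FPKM in floxed libraries and was named after its values were seen. Sparc, the most abundant, was 2353 ± 452 FPKM in Pdgfra-cre and 2392 ± 441 FPKM in floxed libraries.

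Laminin receptors were led by Itgb1, the beta chain shared by laminin-binding integrins, at 324, 281 and 312 FPKM in Pdgfra-cre libraries 13, 23 and 25, against 342, 340 and 361 FPKM in floxed libraries 8, 9 and 43 (339.932 in library 9). These values did not overlap, but limma called no difference (log2 fold change -0.19 ± 0.10, SE; limma adjusted p = 0.566). Of 12 listed receptors 9 were tested and 0 passed, with 3 above 0, 6 below 0 and a median of -0.056. Groups did not overlap for 2 of those tested, Itgb1 and Sdc1, both lower in Pdgfra-cre, against 8.29% of all tested genes. Sdc1, a heparan sulfate proteoglycan that binds laminin, was 40.2 ± 11.4 FPKM in Pdgfra-cre and 65.8 ± 15.5 FPKM in floxed libraries (SD, n = 3 each; limma adjusted p = 0.287), and Itga1 was 7.63 ± 3.40 FPKM in Pdgfra-cre and 10.5 ± 1.71 FPKM in floxed libraries (limma adjusted p = 0.615). The receptors of epithelial laminin, Itga6 and Itgb4, did not exceed 0.882 and 0.635 FPKM.

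**Figure D5:**
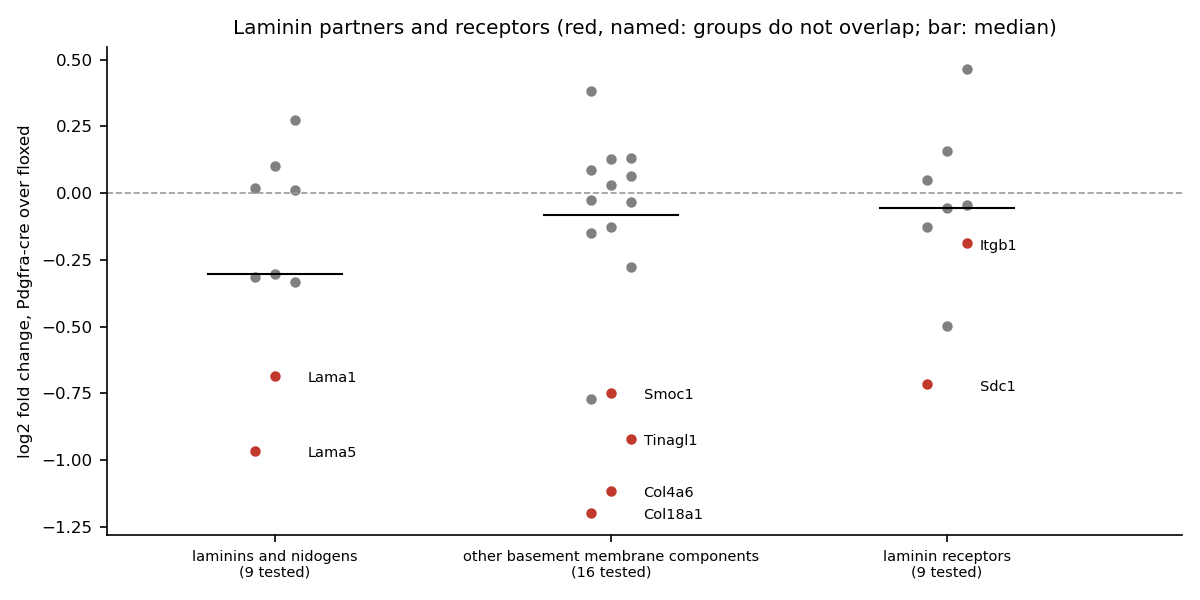
Log2 fold change of Pdgfra-cre over floxed for each tested laminin or nidogen gene and for the tested genes of 2 related lists, with a bar at the median. Named genes in red have groups that do not overlap: Lama1, Lama5, Col18a1, Col4a6, Tinagl1, Smoc1, Itgb1 and Sdc1 all lie below 0. Of all tested genes 8.29% lay lower without overlap and 8.07% higher.

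Enzymes that build the laminin-binding sugar of dystroglycan had 10 tested genes, 0 passing, 6 above 0 and 4 below, with a median of 0.056, which was -0.034 after rescaling to TPM and -0.043 without Pdgfra-cre library 13. The glycosyltransferase gene Large was 3.11 ± 0.68 FPKM in Pdgfra-cre and 4.34 ± 0.77 FPKM in floxed libraries (SD, n = 3 each; limma adjusted p = 0.613). The kinase gene Pomk was 8.22 ± 3.54 FPKM in Pdgfra-cre and 11.3 ± 3.07 FPKM in floxed libraries (limma adjusted p = 0.673). B4gat1, the most abundant, was 46.8 ± 7.02 FPKM in Pdgfra-cre and 48.7 ± 4.08 FPKM in floxed libraries.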

How the data were processed

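Total RNA of sorted stromal cells from 6 mice was made into full-length cDNA and tagmented libraries, per the labels' protocols, a route that does not keep strand. FPKM per gene were deposited by the authors, 1 table per library. The submitters' processing notes list mm10, TopHat2 2.1.1, Bowtie2 2.2.8, SAMtools 0.1.18 and Cuffdiff 2.2.1. For the annotation and options nothing is stated in the sources used here. Close paralogs may share reads.

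Genes were tested with limma 3.58.1 in R 4.3.3 on log2(FPKM + 1) with a variance trend, after a filter of FPKM at least 1 in at least 3 libraries (11429 of 24346 genes), at an adjusted p of 0.05. Fold changes on this scale understate differences of low genes. Values after ± are SD over 3 libraries or SE where marked. The procedure was tested on simulated data.

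The members and lists were chosen with earlier results of these data known. Named were all members, the other laminin chains, the most abundant and 3 lowest-p genes of each related list and leading markers. A further 2 genes named by it are left out here. Genes most alike in profile were to be named for members averaging 5 FPKM or more and without overlap between groups, which no member met.

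Coordinates are from GENCODE M21 (GRCm38). Depth was estimated from FPKM times exon length of single-transcript genes, where values gather at what 1 fragment is worth, sought between 0.08 and 0.16. Intervals and limits from it cover counting error only. Alternatives were pseudocounts of 0.1 and 5, filters of 0 and 5 FPKM, array weights, quantile or median-of-ratios normalization, TPM and leaving out each library.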

Additional observations from a re-analysis of the deposited data

How the results depend on the processing

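No paired analysis was run, because the labels used here give no pairing of mice between the groups. Under 14 alternatives 0 members passed, with the lowest adjusted p of a member at 0.227 (Lama5). Over all genes leaving out 1 library gave 0 to 31 passing (31 without Pdgfra-cre 25, 3 without 13 and 2 without floxed library 43), and 0 under the other alternatives. Of 121 member values under alternatives, 112 kept their direction and side of the threshold and 9 changed sign. Lama4 was -0.038 with quantile normalization and -0.078 after rescaling to TPM, and -0.060 to 0.16 with a library left out. Nid1 was -0.040 with quantile normalization and -0.087 after rescaling to TPM, and -0.095 to 0.21 with a library left out. The exact test of Lama3 gave differences of -0.027 to 0.019. The receptor median was -0.19 with a pseudocount of 0.1, -0.092 without a filter, -0.12 with a filter of 5 FPKM, -0.20 after rescaling to TPM, -0.15 with array weights and -0.13 to 0.036 with a library left out. The cause was not tested. Lama5 was below the filter of 5 FPKM, as was Lama1. Lama1 ran from -0.84 to -0.39 and Lama5 from -1.72 to -0.35 over all alternatives that gave a value. The Lamb2 to Lamb1 difference ran from 0.46 to 0.83. With 3 libraries a group, the width of the intervals limits what could be seen.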
